A study of Homo sapiens with 18 samples.

Results

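The vascular endothelial growth factor (VEGF) family, the neuropilin co-receptors and the secreted proteoglycan endocan were examined in LX-2 cells, a line derived from human hepatic stellate cells, with and without thrombin. The 8 genes, chosen by symbol, were the growth factor genes VEGFA, VEGFB, VEGFC and PGF, the neuropilin genes NRP1 and NRP2, the angiopoietin gene ANGPT1 and the endocan gene ESM1, and all 8 were found among the 28278 symbols of the count table. Of these, 7 passed the filter on low counts and were tested, and ANGPT1 did not pass. The libraries were poly(A)-enriched RNA-seq libraries in 6 groups of 3. Every culture had been plated 48 h earlier and held in medium without serum for 1 h. Control cultures then stayed in that medium for 4, 24 or 48 h, and thrombin cultures received the clotting protease thrombin at 1 U/mL for 4, 24 or 48 h. No group received another agent, all cells were of 1 line, and the libraries of each group are numbered 12, 13 and 14. The labels do not say that these numbers mark separate cultures, so the p-values measure the spread between libraries, which may be technical.

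VEGF ligands are dimeric secreted proteins that bind receptor tyrosine kinases on endothelial cells. VEGF-A acts mainly through the receptor encoded by KDR and drives vessel sprouting and permeability, VEGF-B and placental growth factor (PGF) bind the receptor encoded by FLT1, and VEGF-C is best known for lymphatic growth through the receptor encoded by FLT4. Neuropilins lack kinase activity and bind both VEGFs and class 3 semaphorins. Endocan is a dermatan sulfate proteoglycan best known from activated and tip endothelial cells, and angiopoietin-1 is the ligand of the endothelial receptor TIE2. In liver, stellate cells lie against the sinusoidal endothelium and are known as a source of VEGF in injury.

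Library totals ranged from 14431044 to 23270601 counts, and each library's counts were scaled to CPM, the count of a gene per 1e+06 counts of its library, with TMM factors from 0.945 to 1.031. Between thrombin 4 h and control 24 h only 0.0716% of tested genes were called (11 of 15353), and 948 of 961 genes with a call at 4 h and at 24 h changed sign between these times. Every direction given here rests on the labels of the groups. Differences between 2 libraries of a group were larger than sampling noise (chi-square per degree of freedom above 1) in every pair, and libraries numbered 12 at 4 h and control 48 h replicate 14 stood apart. That measure was 16.1 and 15.5 for control replicate 12 against 13 and 14 and 4.32 between 13 and 14. In the thrombin 4 h group it was 14.1 and 16.7 against 5.69, and control 48 h replicate 14 gave 17.1 and 12.5 against 3.78 between 12 and 13. Of 15 stellate cell markers 12 were tested, with PDGFRB at 66.5 CPM over all libraries, while the vitamin A storage gene LRAT (0.221 CPM) and the matrix genes DCN (0.0921 CPM) and LUM (0.179 CPM) were near 0. Of 14 endothelial markers, whose summed level was 60.1 to 84.1 CPM in every library, 12 were tested. TIE1 (35.3 CPM), VWF (14.5 CPM), ROBO4 (6.97 CPM) and FLT1 (5.40 CPM) were the highest over all libraries, PECAM1 stood at 3.82 CPM, CDH5 at 0.689 CPM and EMCN at 0.0815 CPM, and LYVE1 had no count. Hepatocyte markers summed to at most 7.54 CPM in any library.

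Thrombin changed 4 of the 7 tested genes at 24 h and 2 at 4 h. At 24 h ESM1, NRP2 and VEGFA rose and VEGFB fell, and at 4 h ESM1 and NRP2 fell. VEGFC, PGF and NRP1 were not called at any time, and no gene of the table was called at 48 h. A gene counted as called, and as risen or fallen, when edgeR's quasi-likelihood test gave it a p under 0.05 after Benjamini-Hochberg adjustment over all 15353 tested genes. In bulk RNA, fewer cells of a type and less RNA per cell cannot be told apart. At that threshold 11.8% of all tested genes were called at 4 h (6.29% higher, 5.52% lower), 17.6% at 24 h (9.05% higher, 8.54% lower) and 0% at 48 h. The effect itself differed between 4 h and 24 h for 4 of the 7 genes (28% of all tested genes), between 24 h and 48 h for 3 (13.8%) and between 4 h and 48 h for 0 (0.632%). At 48 h the count at an unadjusted p under 0.05 was 1110 genes, or 7.23% of those tested, and DESeq2 called 14. The libraries of the 2 groups did not overlap for 3 of the 7 genes at 4 h, 6 at 24 h and 2 at 48 h, where the share over all tested genes was 25.8%, 34.1% and 14.2%.

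**Figure D1:**
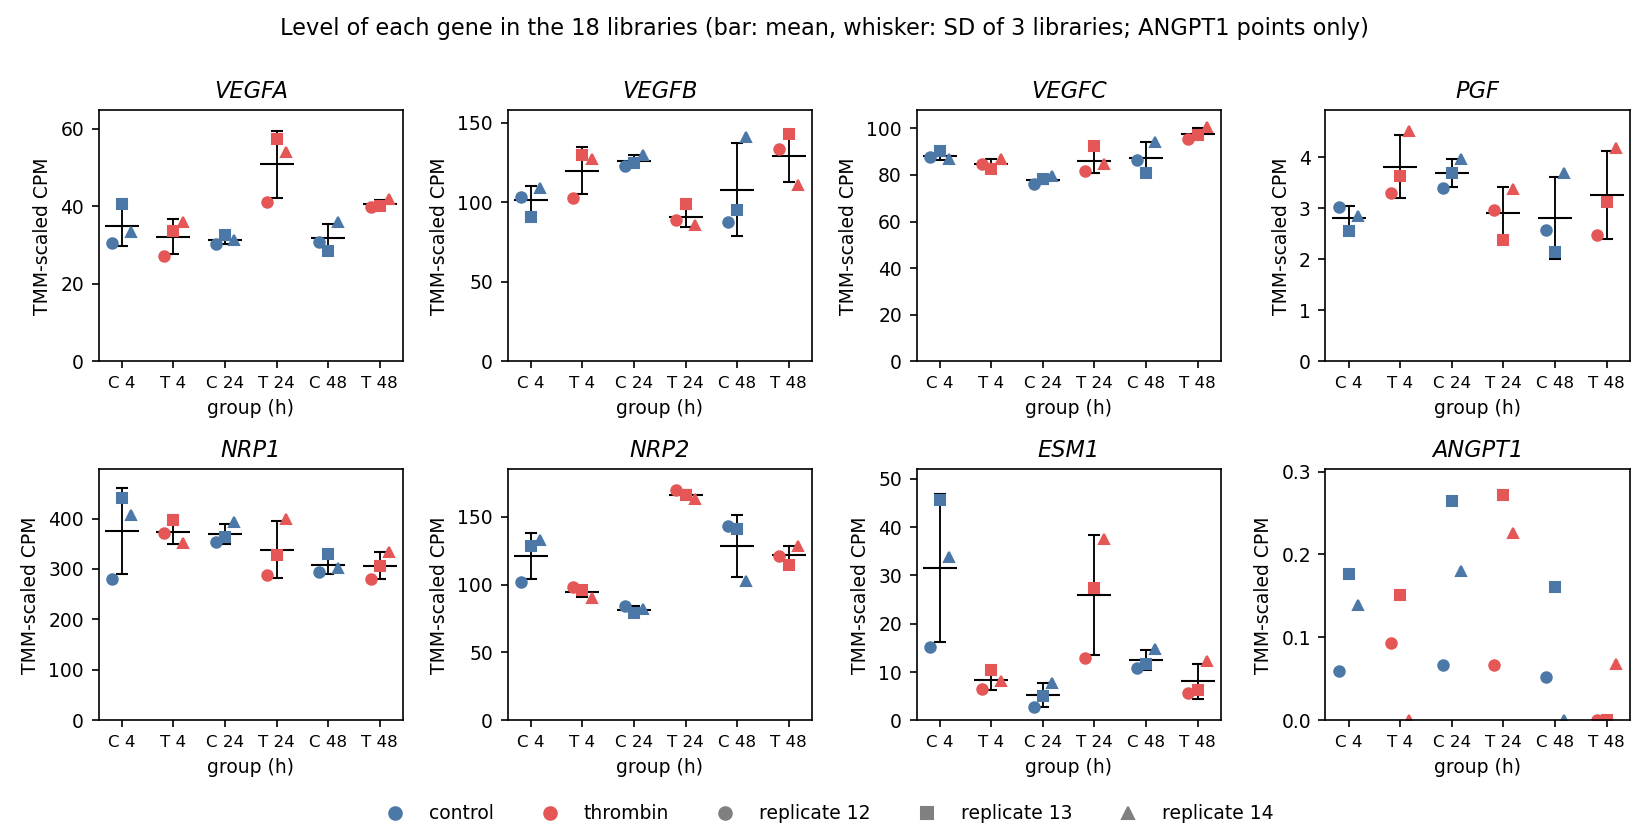
Level of each of the 8 genes in TMM-scaled CPM (vertical axis, from 0) in the 18 libraries by group, with C for control, T for thrombin and the hours. Points are libraries, with the shape giving the replicate number, and black bars and whiskers are the mean and SD of 3 libraries (not drawn for ANGPT1). NRP2 is highest in all 3 thrombin 24 h libraries, at 163.0 to 169.8 CPM.

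**Figure D2:**
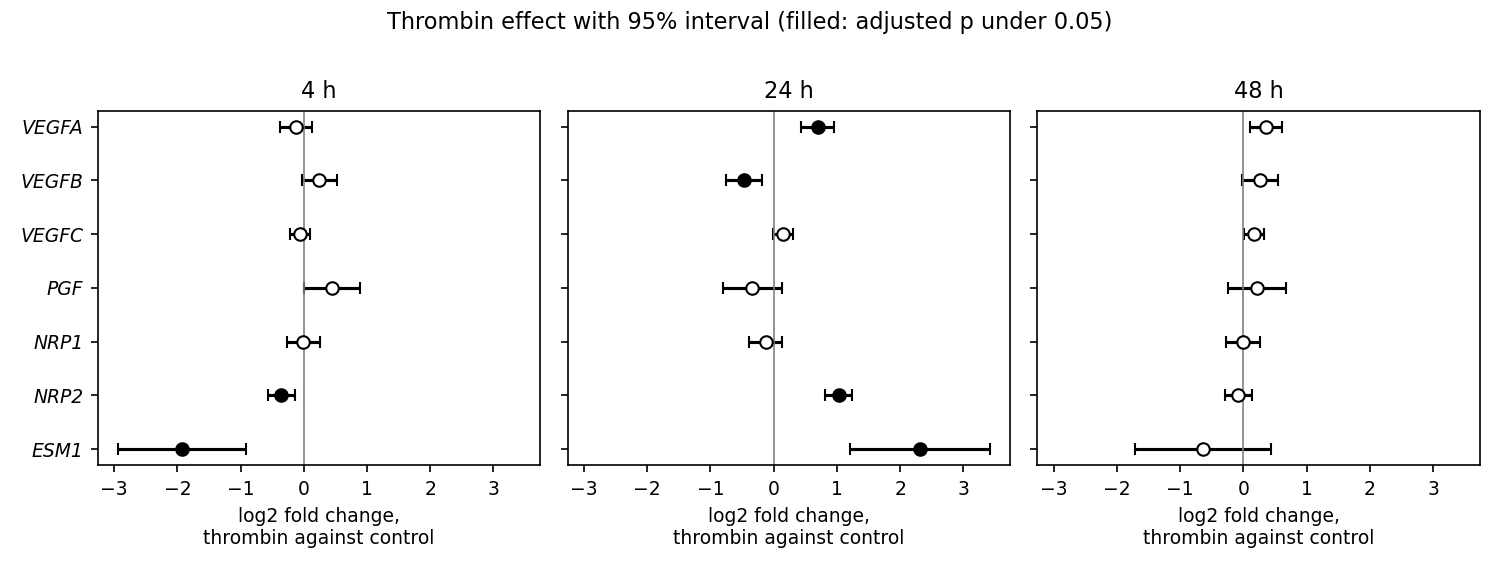
Log2 fold change of thrombin against control (horizontal axis) at 4, 24 and 48 h for the 7 tested genes, with 95% intervals from the quasi-likelihood fit. Filled points have an adjusted p under 0.05, which holds for NRP2 and ESM1 at 4 h, for VEGFA, VEGFB, NRP2 and ESM1 at 24 h, and for none of the 7 at 48 h.

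Promoter sequence is shown for the 3 genes that were called at 24 h and are in the RefSeq promoter table (GRCh38.p14), as the 250 bases before the annotated start, 5′ to 3′ on the gene's strand. That table held 5 of the 8 genes (VEGFB, VEGFC, PGF, NRP2 and ESM1). The windows are chr5:54985594-54985843 (minus strand) for ESM1, chr2:205682251-205682500 (plus strand) for NRP2 and chr11:64234334-64234583 (plus strand) for VEGFB. Capitals mark TATAAA and ACGTG in ESM1 and CCGCCC in NRP2 and VEGFB, on either strand, with overlapping matches run together.
ESM1: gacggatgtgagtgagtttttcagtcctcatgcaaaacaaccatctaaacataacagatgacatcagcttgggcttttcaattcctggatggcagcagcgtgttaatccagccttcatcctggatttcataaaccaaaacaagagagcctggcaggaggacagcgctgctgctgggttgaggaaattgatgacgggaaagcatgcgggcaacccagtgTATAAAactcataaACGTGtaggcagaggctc
NRP2: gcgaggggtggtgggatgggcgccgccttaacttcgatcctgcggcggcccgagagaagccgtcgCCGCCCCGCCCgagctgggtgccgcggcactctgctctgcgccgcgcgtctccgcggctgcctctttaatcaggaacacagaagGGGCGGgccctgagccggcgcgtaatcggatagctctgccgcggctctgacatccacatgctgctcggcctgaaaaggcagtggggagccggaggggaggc
VEGFB: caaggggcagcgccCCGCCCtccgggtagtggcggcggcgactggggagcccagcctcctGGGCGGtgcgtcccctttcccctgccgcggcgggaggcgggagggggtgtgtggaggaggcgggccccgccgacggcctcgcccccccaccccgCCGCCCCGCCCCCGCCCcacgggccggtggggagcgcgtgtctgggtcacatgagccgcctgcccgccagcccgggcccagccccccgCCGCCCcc

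The ESM1 window was the poorest in G and C of the 5, at 47.6%, against 70.0% in NRP2, 70.8% in PGF, 74.0% in VEGFC and 82.8% in VEGFB and a median of 58.0% over 27305 promoters. TATAAA, the letters of the TATA box, began 32 bases before the ESM1 start and was in none of the other 4 windows, and it was in 11.1% of all promoters. It was added to the search after the sequences were seen. ACGTG, the core of the hypoxia response element, began 18 bases before the ESM1 start and was in none of the other 4, and it was in 18.7% of all promoters. CCGCCC, the GC box bound by SP factors, matched 6 times in VEGFB, 3 times in NRP2, 2 times each in VEGFC and PGF and 0 times in ESM1, and 42.3% of all promoters held it. None of the 5 windows held TGANTCA (AP-1, in 6.60% of all promoters), GGAATG (TEAD, 11.9%), TGGAAA (NFAT, 18.3%) or the SRF box (1.14%). Both strands were searched, and each match is a run of letters, not a shown binding site.

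ESM1 spanned the widest range of the 7 tested genes, with a ratio of 6.08 between its highest and lowest group mean. It lies on chromosome 5 from 54977867 to 54985593 on the minus strand (GRCh38.p14, protein-coding). Its level was 15.3, 45.5 and 33.9 CPM in control 4 h replicates 12, 13 and 14 and 6.48, 10.4 and 8.13 CPM in the thrombin 4 h libraries. All 3 thrombin libraries lay below all 3 controls, and the control with the number 12 was far below the other two. At 24 h the order was the other way, with 2.74, 5.08 and 7.75 CPM in control and 12.9, 27.3 and 37.6 CPM in thrombin. At 48 h the controls held 10.8, 11.7 and 14.9 CPM and the thrombin libraries 5.74, 6.24 and 12.3 CPM, and these overlapped. The library numbered 12 was the lowest of its group in every group.

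The log2 fold change of ESM1 was -1.93 ± 0.47 (SE, edgeR adjusted p = 0.0181) at 4 h, 2.31 ± 0.51 (edgeR adjusted p = 0.00692) at 24 h and -0.64 ± 0.50 (edgeR adjusted p = 0.805) at 48 h. On the linear scale the 24 h value was a 4.97-fold rise. The effect differed between 4 h and 24 h by 4.24 ± 0.69 and between 24 h and 48 h by -2.95 ± 0.72 (edgeR adjusted p = 0.000533 and 0.0152). In control libraries ESM1 was lower at 24 h than at 4 h (-2.60 ± 0.51, edgeR adjusted p = 0.00398), where 15.2% of all tested genes were called. Among groups labelled thrombin it was higher at 24 h than at 4 h (1.65 ± 0.47, edgeR adjusted p = 0.0327) and lower at 48 h than at 24 h (-1.71 ± 0.48, edgeR adjusted p = 0.0421), with 15.1% and 9.72% of genes called. Ordered by mean, the groups ran from control 24 h (5.19 ± 2.51 CPM, SD, n = 3) through thrombin 48 h (8.10 ± 3.67), thrombin 4 h (8.34 ± 1.97), control 48 h (12.5 ± 2.12) and thrombin 24 h (25.9 ± 12.4) to control 4 h (31.6 ± 15.3). ESM1 was not called between any 2 neighbours in this order.

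The call of ESM1 at 4 h depended on single libraries. It was lost without control replicate 13 (-1.55, edgeR adjusted p = 0.0712), control replicate 14 (0.0540), thrombin replicate 12 (0.0508) or thrombin replicate 14 (0.0672). It was also lost when the 4 h libraries were fitted alone (0.0978). Leaving out all libraries of 1 number gave -2.11 without 12 (edgeR adjusted p = 0.00228), -1.74 without 13 (0.333) and -1.87 without 14 (0.147). At 24 h the call held without any single library, from 1.93 to 2.74 (edgeR adjusted p from 0.00281 to 0.0385), and was lost without all libraries numbered 13 (2.26, 0.132) or 14 (2.36, 0.0736).

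NRP2, which encodes the neuropilin that serves as co-receptor for VEGF-C and for semaphorin 3F, had the smallest adjusted p of the 7 genes at 24 h. It lies on chromosome 2 from 205682501 to 205798131 on the plus strand. The control 24 h libraries 12, 13 and 14 held 84.4, 78.7 and 81.6 CPM and the thrombin 24 h libraries 169.8, 165.7 and 163.0 CPM. The 24 h groups were far apart and each was tight. At 4 h the controls held 101.7, 128.6 and 133.1 CPM and the thrombin libraries 98.1, 95.9 and 90.2 CPM. All 3 thrombin libraries were lower, with control replicate 12 close to them. The 48 h controls held 142.8, 140.5 and 102.3 CPM and the thrombin libraries 121.4, 114.6 and 128.3 CPM, which overlapped, and control replicate 14, which stood apart in the whole table, was the lowest.

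NRP2 rose 2.04-fold at 24 h (1.03 ± 0.11 on the log2 scale, edgeR adjusted p = 1.16e-07) and fell by 0.35 ± 0.10 on the log2 scale at 4 h (edgeR adjusted p = 0.0278). At 48 h the value was -0.08 ± 0.10 (edgeR adjusted p = 0.886), and -0.23 (0.571) without control replicate 14. The thrombin effect differed between 4 h and 24 h by 1.38 ± 0.15 and between 24 h and 48 h by -1.11 ± 0.15 (edgeR adjusted p = 1.49e-07 and 1.15e-05). The control level itself changed, from 121.1 ± 17.0 CPM at 4 h to 81.6 ± 2.87 CPM at 24 h and 128.6 ± 22.7 CPM at 48 h. That was a change of -0.57 ± 0.11 and then of 0.66 ± 0.11 (edgeR adjusted p = 0.000591 and 0.000694), with 15.2% and 6.12% of all tested genes called in those comparisons. In the order of group means, NRP2 was not called between control 24 h and thrombin 4 h (94.7 ± 4.12 CPM), where 0.0716% of genes were called. Control 24 h minus thrombin 4 h was -0.22 ± 0.11 on the log2 scale (edgeR adjusted p = 0.898, unadjusted p = 0.0518). The libraries of these groups did not overlap, at 78.7 to 84.4 CPM and 90.2 to 98.1 CPM. The step from thrombin 4 h to control 4 h was called. The middle groups control 4 h, thrombin 48 h (121.4 ± 6.83) and control 48 h were not called against each other. Thrombin 24 h (166.1 ± 3.40) lay above control 48 h (control 48 h minus thrombin 24 h -0.37 on the log2 scale, edgeR adjusted p = 0.0291, with 6.87% of genes called). Leaving out control 4 h replicate 13 or 14 or thrombin 4 h replicate 13 or 14 ended the 4 h call (edgeR adjusted p from 0.0741 to 0.143). Leaving out all libraries of 1 number gave -0.49 without 12 (edgeR adjusted p = 0.00154), -0.32 without 13 (0.371) and -0.25 without 14 (0.231).

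NRP1, the broader co-receptor that binds VEGF-A and semaphorin 3A, lies on chromosome 10 from 33177493 to 33334667 on the minus strand. Its 18 libraries ranged from 279.2 to 440.0 CPM with a median of 342.6 CPM. Its thrombin effect was -0.01 ± 0.13 at 4 h, -0.13 ± 0.13 at 24 h and -0.01 ± 0.13 at 48 h (edgeR adjusted p = 0.977, 0.523 and 0.995). At 24 h the 95% interval of the log2 change ran from -0.39 to 0.13, and the libraries of the groups overlapped at every time. In control 4 h, replicate 12 was the lowest of all 18 libraries at 279.2 CPM and replicate 13 the highest. Counts of the 2 neuropilins in the same library gave an NRP2 to NRP1 ratio of 0.221 ± 0.0158 in control 24 h and 0.502 ± 0.0908 in thrombin 24 h (SD, n = 3), a ratio of CPM that was not scaled by transcript length. The libraries were 0.239, 0.217 and 0.208 in control and 0.590, 0.507 and 0.408 in thrombin, and these 24 h groups did not overlap. The mean ratio was 0.328 in control 4 h, 0.254 in thrombin 4 h, 0.417 in control 48 h and 0.398 in thrombin 48 h. Control 24 h was thus the lowest group. The control 48 h libraries, at 0.339 to 0.485, overlapped those of thrombin 24 h.

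VEGFA, the main angiogenic ligand, lies on chromosome 6 from 43770211 to 43786487 on the plus strand. The control 24 h libraries held 30.3, 32.5 and 31.4 CPM and the thrombin 24 h libraries 41.0, 57.4 and 53.9 CPM, so every thrombin library was above every control. The rise was 1.62-fold, or 0.69 ± 0.12 on the log2 scale (edgeR adjusted p = 0.000246), and it kept its call without any single library (0.60 to 0.83, edgeR adjusted p from 2.56e-05 to 0.00286). At 4 h the controls held 30.6, 40.5 and 33.4 CPM and the thrombin libraries 27.0, 33.6 and 35.9 CPM, which overlapped (-0.12 ± 0.12, edgeR adjusted p = 0.581). The 48 h controls held 30.8, 28.5 and 35.9 CPM and the thrombin libraries 39.7, 40.0 and 41.8 CPM. These did not overlap, and the change of 0.35 ± 0.12 was not called (edgeR adjusted p = 0.561, unadjusted p = 0.00870). The effect at 24 h was greater than at 4 h by 0.81 ± 0.18 (edgeR adjusted p = 0.00105), while the difference from 24 h to 48 h was -0.34 ± 0.18 and not called (edgeR adjusted p = 0.204). Of the 6 groups, control 24 h, control 48 h, thrombin 4 h and control 4 h lay between 31.4 and 34.8 CPM, thrombin 48 h at 40.5 ± 1.12 CPM and thrombin 24 h at 50.8 ± 8.68 CPM. VEGFA was not called between any neighbours in this order. Gene-level counts do not separate the splice forms of VEGFA.

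VEGFB, whose product binds FLT1 and is best known for roles in fatty acid handling and cell survival, moved the other way at 24 h. It lies on chromosome 11 from 64234584 to 64239264 on the plus strand. The controls held 123.0, 124.5 and 129.8 CPM and the thrombin libraries 88.7, 98.6 and 85.6 CPM, with no overlap. The change was -0.47 ± 0.14 (edgeR adjusted p = 0.0199), and the call was lost without control replicate 13 or 14 or thrombin replicate 12 or 14 (edgeR adjusted p from 0.0507 to 0.0843) and without all libraries numbered 12 (0.115) or 13 (0.0762). At 4 h the controls held 103.5, 91.0 and 109.0 CPM and the thrombin libraries 102.7, 129.7 and 127.0 CPM, and the value of 0.24 ± 0.14 was not called (edgeR adjusted p = 0.259). The 48 h controls held 87.2, 94.8 and 141.1 CPM and the thrombin libraries 133.1, 143.0 and 110.7 CPM. Replicate 14 was the highest control and the lowest thrombin library there, and the value of 0.26 ± 0.14 (edgeR adjusted p = 0.710) became 0.50 (0.210) without control replicate 14. The effect at 24 h differed from those at 4 h and 48 h by -0.71 ± 0.19 and 0.73 ± 0.19 in the order of time (edgeR adjusted p = 0.00796 and 0.0132). The lowest group mean was thrombin 24 h (91.0 ± 6.80 CPM) and the highest thrombin 48 h (128.9 ± 16.5 CPM). VEGFB was not called between any neighbours in the order.

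VEGFC lies on chromosome 4 from 176683538 to 176792922 on the minus strand and held 76.0 to 100.4 CPM in all 18 libraries, with a ratio of 1.26 between its highest and lowest group mean. At 24 h its control libraries held 76.0, 78.1 and 79.5 CPM and its thrombin libraries 81.6, 92.2 and 84.6 CPM. At 48 h they held 86.4, 80.8 and 94.3 CPM and 95.6, 97.3 and 100.4 CPM. The thrombin libraries were above the controls without overlap at both times, but the changes of 0.15 ± 0.08 and 0.17 ± 0.08 were not called (edgeR adjusted p = 0.203 and 0.659). At 4 h the change was -0.06 ± 0.08 (edgeR adjusted p = 0.680). The 95% interval at 24 h ran from -0.01 to 0.30 on the log2 scale.

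PGF, on chromosome 14 from 74941830 to 74955764 on the minus strand, was low, with 35 to 85 counts in each library. At 4 h its controls held 3.02, 2.56 and 2.85 CPM and its thrombin libraries 3.31, 3.63 and 4.52 CPM, and at 24 h 3.41, 3.70 and 3.96 CPM against 2.96, 2.38 and 3.39 CPM. Thrombin libraries were all higher at 4 h and all lower at 24 h. Neither change was called (0.45 ± 0.22 and -0.34 ± 0.22, edgeR adjusted p = 0.188 and 0.330), nor was the difference between them (-0.78 ± 0.31, edgeR adjusted p = 0.0621). That difference was called with the replicate number as a block (0.0352), in a fit of the 4 h and 24 h libraries alone (0.0480) and without thrombin 4 h replicate 12 (0.0434). At 48 h the value was 0.21 ± 0.22 (edgeR adjusted p = 0.861).

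ANGPT1, on chromosome 8 from 107249482 to 107497918, had 34 counts in all. The control libraries 12, 13 and 14 held 1, 4 and 2 counts at 4 h, 1, 4 and 3 at 24 h and 1, 3 and 0 at 48 h. The thrombin libraries held 2, 3 and 0 counts at 4 h, 1, 4 and 4 at 24 h and 0, 0 and 1 at 48 h. At this depth ANGPT1 was not tested for a difference between groups, and no fold is given.

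Levels between genes were compared as CPM per kilobase of the longest coding transcript in GENCODE v29, since longer transcripts give more reads. On that scale and averaged over the 18 libraries, VEGFB stood at 81.5, NRP1 at 58.7, VEGFC at 42.1, NRP2 at 17.9, VEGFA at 10.4, ESM1 at 7.04, PGF at 1.67 and ANGPT1 at 0.0252 CPM per kilobase. In thrombin 24 h VEGFA reached 14.4 ± 2.45 and VEGFB 65.9 ± 4.93 CPM per kilobase (SD, n = 3), against 8.88 ± 0.301 and 91.2 ± 2.58 in control 24 h. VEGFB transcripts thus stayed the more abundant of the 2 ligands in each of the 6 groups. The transcript that the cells use may be shorter than the longest one, which would raise a gene's level on this scale.

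The other genes of the pathway are given as lists chosen with earlier results of these data known. Over all tested genes, 17.6% were called at 24 h and 11.8% at 4 h. Of the tested VEGF and angiopoietin receptors and other ligands, 1 was called at 24 h and 0 at 4 h. That list held 9 symbols, of which FIGF is an older name of VEGFD. The other 8 were in the table, and 6 were tested. KDR rose at 24 h from 1.26 ± 0.634 to 2.41 ± 0.893 CPM (0.93 ± 0.32, edgeR adjusted p = 0.0405) and measured -0.94 ± 0.32 at 4 h (edgeR adjusted p = 0.0574). FLT1, the receptor of VEGF-B and PGF, held 4.79 ± 0.509 and 5.97 ± 0.768 CPM at 24 h in control and thrombin (edgeR adjusted p = 0.325). FLT4 (edgeR adjusted p = 0.922), TEK (0.484) and TIE1 (0.597) were not called at 24 h either. TIE1 averaged 35.3 CPM, FLT4 1.84 CPM and TEK, which encodes TIE2, 0.882 CPM over all libraries. ANGPT2 and VEGFD had at most 7 and 1 counts in any library and were not tested.

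Of 7 genes for the processing of VEGF-C, 1 rose and 1 fell at 24 h, where 17.6% of all tested genes were called. CCBE1, whose product helps the protease ADAMTS3 to activate VEGF-C, rose from 274.6 ± 3.36 to 408.9 ± 33.9 CPM (0.57 ± 0.09, edgeR adjusted p = 6.37e-05), and the lysosomal protease gene CTSD fell by 0.28 ± 0.09 (edgeR adjusted p = 0.0290). At 4 h the proprotein convertase gene FURIN rose by 0.31 ± 0.10 (edgeR adjusted p = 0.0434) and the other 6 were not called. Of 14 tested semaphorin, plexin and neuropilin adaptor genes, 2 rose and 1 fell at 24 h, and 0 rose and 1 fell at 4 h. The shares of all tested genes called were 17.6% at 24 h and 11.8% at 4 h. The semaphorin genes SEMA3B and SEMA3C rose by 0.50 ± 0.14 and 0.36 ± 0.11 (edgeR adjusted p = 0.0151 and 0.0258), and PLXND1, which encodes a semaphorin receptor, fell by 0.45 ± 0.11 (edgeR adjusted p = 0.00660). At 4 h the plexin gene PLXNA2 fell by 0.71 ± 0.20 (edgeR adjusted p = 0.0226).

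Hypoxia induces VEGFA in many cells, and 15 hypoxia response genes were tested beside it. At 24 h 3 rose and 3 fell, with a median log2 fold change of -0.02, and at 4 h 0 rose and 2 fell. Calls were made for 17.6% of all tested genes at 24 h and 11.8% at 4 h. The lactate dehydrogenase gene LDHA rose by 0.43 ± 0.08 at 24 h (edgeR adjusted p = 0.000451), while the glucose transporter gene SLC2A1 fell by 0.48 ± 0.08 (edgeR adjusted p = 0.000143). NDRG1 and the oxygen sensor gene EGLN1 rose by 0.44 ± 0.09 and 0.32 ± 0.08, and the other genes that fell were P4HA1 and BNIP3. The 2 that fell at 4 h were NDRG1 and LDHA. Of 6 tested hypoxia factors and regulators, EPAS1, which encodes HIF-2-alpha, rose at 24 h (0.44 ± 0.14, edgeR adjusted p = 0.0296) and fell by 0.43 ± 0.14 at 4 h (edgeR adjusted p = 0.0444), and the other 5 were not called at either time.

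Of 21 tested secreted regulators of angiogenesis outside the VEGF family, 13 rose and 1 fell at 24 h, where 17.6% of all tested genes were called, with a median log2 fold change of 0.75 against 0.00 over all tested genes, and 0 rose and 6 fell at 4 h, where 11.8% were called, with a median of -0.26. The metalloproteinase inhibitor gene TIMP3, an angiogenesis inhibitor that blocks VEGF binding to KDR, rose by 1.19 ± 0.08 at 24 h, and FGF2 and FGF1, which encode endothelial mitogens, by 1.33 ± 0.10 and 1.52 ± 0.13. HGF was the gene that fell. THBS1, which encodes the anti-angiogenic thrombospondin-1, rose by 1.40 ± 0.12 at 24 h, and these 4 fell at 4 h (edgeR adjusted p from 7.98e-06 to 0.0178).

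**Figure D3:**
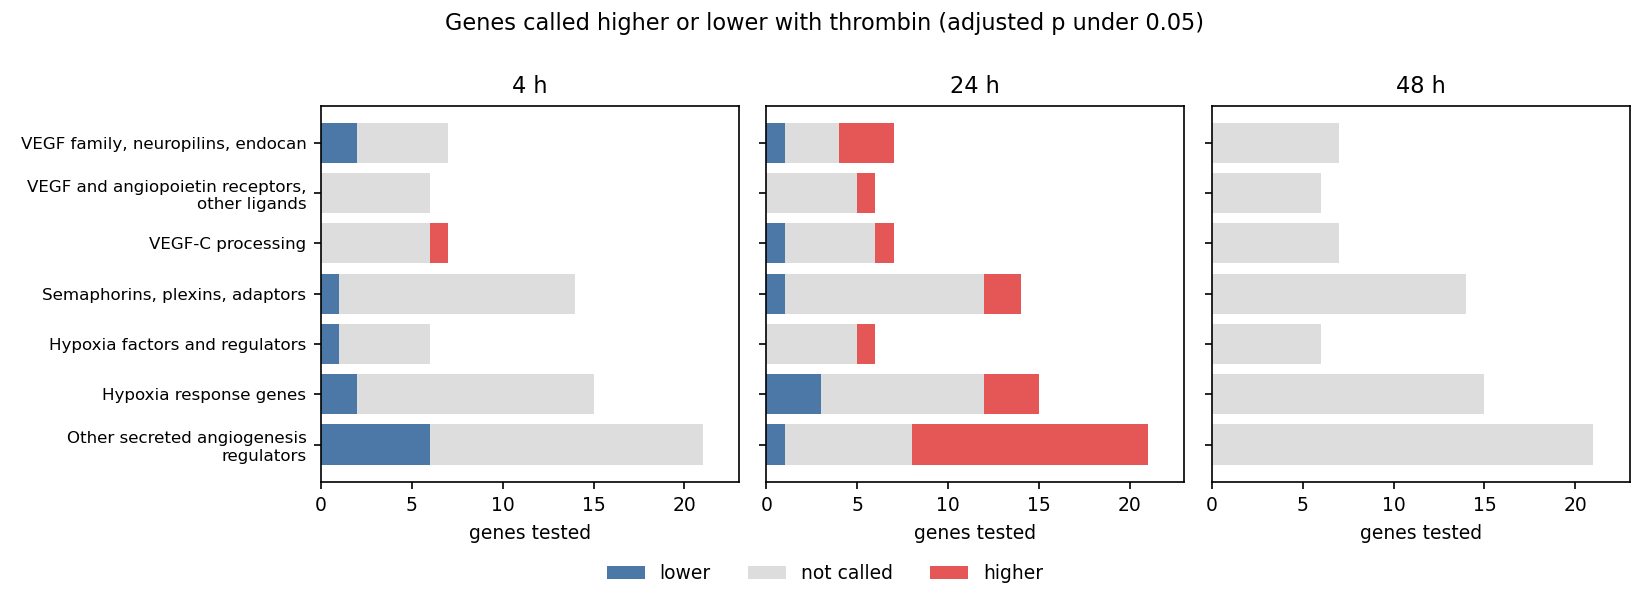
Number of tested genes (horizontal axis) called lower, not called or called higher with thrombin at 4, 24 and 48 h in each gene list. The list of other secreted angiogenesis regulators has 13 of 21 genes higher at 24 h and 6 lower at 4 h, and at 48 h every bar is wholly uncalled.

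The pattern of each of the 7 tested genes over the 18 libraries was compared with that of all tested genes of at least 1 CPM by Pearson's r of log2 CPM, as a description, since the libraries of a group share their condition. The genes most like NRP2 were THBS1 (r = 0.96), CRIM1 (0.96) and DLC1 (0.95). Those most like ESM1 were IL1B (0.95), SERPINB2 (0.95) and CXCL8 (0.95). VEGFA was most like CARS1 (0.90), CHAC1 (0.90) and KIFC3 (0.89), and VEGFB was like TCFL5 (0.90). The nearest genes were less alike for VEGFC (RRN3P3, 0.81), NRP1 (TSC22D1, 0.83) and PGF (BOD1, 0.79). Among the 7 genes, r was 0.65 between NRP2 and ESM1, 0.61 between NRP2 and VEGFA and -0.71 between NRP2 and VEGFB.

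NRP2 and ESM1 were set beside 9 contractile and matrix-response genes of stellate cells (TAGLN, CNN1, ACTA2, CALD1, MYL9, TPM1, CCN1, CCN2 and ANKRD1). Of these 9 genes 9 rose at 24 h and 4 fell at 4 h, where 17.6% and 11.8% of all tested genes were called. CCN1 and CCN2 were also in the list of secreted regulators of angiogenesis, so their calls are counted in both. The part of these 9 genes in the changes of NRP2 and ESM1 was not tested. Their summed level was 1409 to 1587 CPM in thrombin 4 h, 1502 to 1627 CPM in control 24 h, 2159 to 2276 CPM in control 4 h, 2328 to 2449 CPM in thrombin 48 h, 2339 to 2665 CPM in control 48 h and 3123 to 3326 CPM in thrombin 24 h. The 2 groups with the lowest sums were those with the lowest NRP2 means, and thrombin 24 h had the highest of both. By group means ESM1 did not share this order, as its mean was highest in control 4 h. Between control 4 h and thrombin 24 h, however, ESM1 was not called and its libraries overlapped. Thrombin 24 h minus control 4 h was -0.28 ± 0.43 on the log2 scale (edgeR adjusted p = 0.821).

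**Figure D4:**
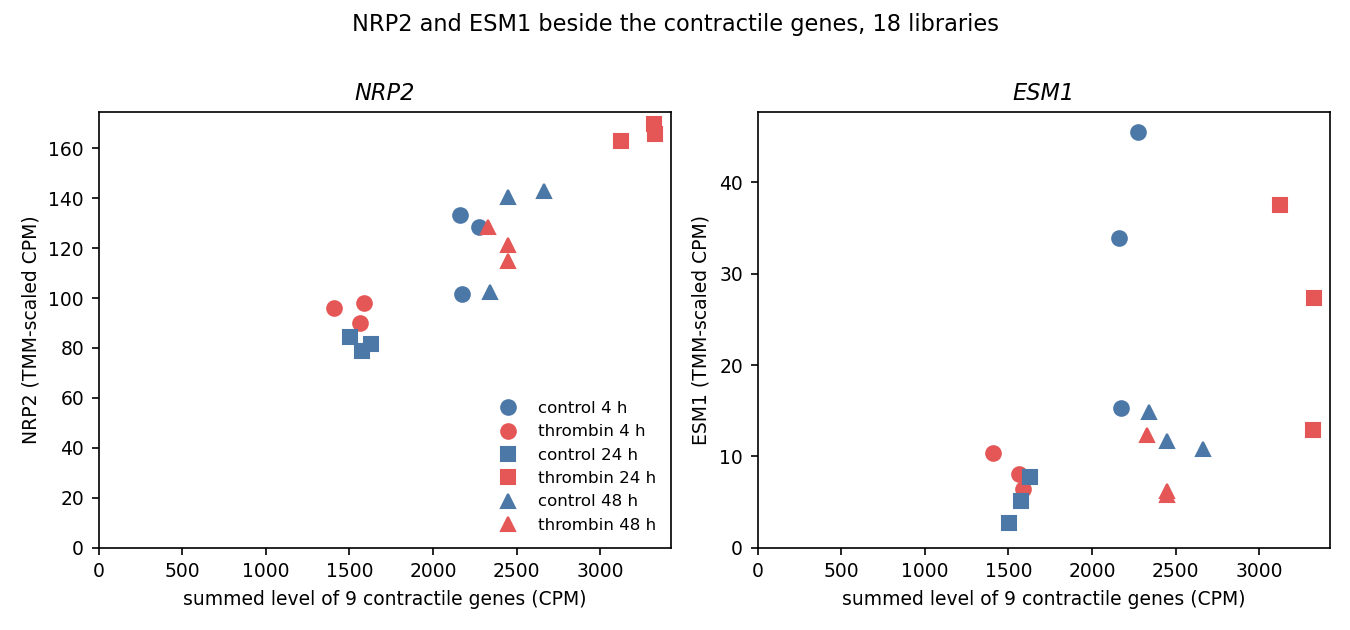
Level of NRP2 and of ESM1 in TMM-scaled CPM (vertical axes) against the summed CPM of 9 contractile and matrix-response genes (horizontal axis), 1 point for each of the 18 libraries, with colour for the treatment and shape for the time. The thrombin 24 h libraries lie at the upper right for NRP2, at 3123 to 3326 CPM, while for ESM1 control 4 h replicates 13 and 14 lie above 2 of the 3 thrombin 24 h libraries at a lower sum.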

How the data were processed

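The authors deposited 1 table of raw counts per gene symbol for 18 libraries, in whole numbers. The tools named are DESeq2, SAMtools 1.21, Bowtie2 2.5.4 and cutadapt 4.9, and the build is GRCh38 (hg38), per the submitters' processing notes. What each tool did, how reads were counted and whether by strand was not given in the sources used here, so reads of VEGFA, VEGFC, NRP1 and NRP2 cannot be told apart from those of antisense genes annotated over them. ESM1 (AC034238.1) and NRP1 (RN7SL398P) each overlap a non-coding gene on their own strand, which strand would not separate. All 18 columns were matched to libraries by title.

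Genes were kept by filterByExpr (minimum count 10, total 15), which left 15353. Counts were scaled by TMM and fitted with edgeR 4.0.16 (quasi-likelihood, robust, a mean per group, 18 libraries, 12 residual degrees of freedom) in R 4.3.3, and contrasts were tested two-sided. DESeq2 1.42.0, RLE scaling, no filter, a replicate block, fits by time and left-out libraries were the alternatives. The standard error of a log2 fold change came from its F statistic. The fit was tested on simulated data in which only seeded genes changed, and only in thrombin 24 h. Against control 24 h it recovered 61.2% of true 1.5-fold changes, 77.6% of 2-fold and 93.9% of 4-fold changes. Of its calls, 1.9% were false. Small true changes could thus go uncalled. The 8 genes and the lists were chosen with earlier results of these data known. Named were the 8 genes, up to 4 genes per list with the smallest adjusted p at 24 h, and up to 3 genes most like each of the tested 7. Some genes are not reported here. FURIN, PLXNA2, P4HA1, BNIP3, HGF and the single marker genes were named after their values were seen. Overlaps and transcript lengths came from GENCODE v29 and coordinates from RefSeq (GRCh38.p14). Marker lists of macrophages and cholangiocytes had 0 of 5 and 1 of 4 tested genes called at 24 h, against 17.6% of all tested genes.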

Additional observations from a re-analysis of the deposited data

Results flagged for a closer look

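The thrombin effect differed between times, by the test of that difference in the edgeR fit (adjusted over 15353 genes, of which 28% were called from 4 h to 24 h and 13.8% from 24 h to 48 h), for 4 of the genes. From 4 h to 24 h the log2 effect moved by 4.24 for ESM1, by 1.38 for NRP2, by 0.81 for VEGFA and by -0.71 for VEGFB. From 24 h to 48 h it moved by -2.95 for ESM1, by -1.11 for NRP2 and by 0.73 for VEGFB. The VEGFB value from 24 h to 48 h was 0.57 (edgeR adjusted p = 0.208) without all libraries numbered 12, and the ESM1 value from 24 h to 48 h was -2.78 (edgeR adjusted p = 0.215) without all libraries numbered 13 and -3.27 (0.0653) without those numbered 14. Without all libraries numbered 13 the VEGFA value from 4 h to 24 h was 0.65 (edgeR adjusted p = 0.0739), and both VEGFB values lost their call. The groups labelled thrombin 4 h and control 24 h enter the first difference with the same sign. Between them none of the 7 tested genes was called, where 0.0716% of all tested genes were. The smallest p was that of NRP2 (edgeR adjusted p = 0.898, unadjusted p = 0.0518).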

How the results depend on the processing

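The 7 tested genes gave 714 values under the alternatives, of which 635 kept their direction and their side of the threshold, 27 lost a call, 6 gained one and 46 changed sign, none of these called in either fit. At 24 h NRP2 and VEGFA kept their call under every alternative run, and ESM1 lost it without all libraries numbered 13 (2.26, edgeR adjusted p = 0.132) or 14 (2.36, 0.0736). Over all tested genes, deviations from the group means did not pair the libraries by replicate number. Same-number correlations of control with thrombin at a time ran from -0.09 to 0.06. Of 9 control libraries, 1 was closest to its own number. That measure does not cover single genes, and for ESM1 the library numbered 12 was the lowest in every group. The fit with a replicate block called 1829, 2678 and 1 genes at 4, 24 and 48 h. For the difference of the effect from 4 h to 48 h it called 163 genes (97 without it). Without a filter the prior degrees of freedom were infinite, so a gene's own spread no longer counted: 50 genes were called at 48 h and 381 for the difference from 4 h to 48 h, with 1 of the 8 genes, ESM1, in each. DESeq2 called 14 and 236 genes there, fits by time called 2 genes at 48 h, and the fit of the 4 h libraries alone called 1 of the 8 genes. With libraries left out, genes called ranged from 96 to 3560 at 4 h, from 936 to 2489 at 24 h, from 0 to 5 at 48 h, and for the differences from 1585 to 4710 (4 h to 24 h), 522 to 2245 (24 h to 48 h) and 0 to 1133 (4 h to 48 h), the lowest without all libraries numbered 13. Single libraries that lowered the count by over 1.5 times were, at 4 h, control replicates 13 and 14 (1019 and 1008 genes) and thrombin replicates 13 and 14 (988 and 840), and, at 24 h, control replicate 12 (1751) and thrombin replicate 14 (1731). The calls among the 8 genes then ranged from 0 to 2 at 4 h, 2 to 4 at 24 h, 2 to 5 and 1 to 3 for the first 2 differences and 0 to 1 for the third.

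The cause of the sign changes was not tested. In the fit with all 18 libraries, the NRP1 value from 4 h to 48 h was 0.0004 ± 0.1786 (SE). That of VEGFB from 4 h to 48 h was 0.0162 ± 0.1915, and that of VEGFC from 24 h to 48 h was 0.0198 ± 0.1078. The NRP2 value from 4 h to 48 h was 0.2711 ± 0.1480. For NRP1 from 4 h to 48 h the value was -0.0099 with RLE scaling, -0.0291 without a filter, -0.0218 with the block, -0.0101 with those times alone and -0.0100 with DESeq2, and -0.1922 to 0.2011 with libraries left out; at 4 h it was 0.0101 with the block and -0.1824 to 0.1235, at 48 h -0.0953 to 0.0528, and from 4 h to 24 h -0.3141 to 0.1239. Without a filter VEGFC from 24 h to 48 h was -0.0091 and VEGFB from 4 h to 48 h -0.0147, and with libraries left out they ranged from -0.0393 to 0.0714 and from -0.2558 to 0.3360. The other ranges were -0.2329 to 0.0090 for VEGFA at 4 h, -0.2694 to 0.0220 for NRP2 at 48 h, -0.0231 to 0.4896 for NRP2 and -0.4437 to 0.0044 for PGF from 4 h to 48 h. Depth limits ANGPT1, with at most 4 counts in a library, and PGF, with 35 to 85.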

Other observations

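Among markers of endothelial cells, which ESM1 and the VEGF receptors also mark, CDH5 rose at 24 h from 0.442 ± 0.202 to 1.45 ± 0.50 CPM (SD, n = 3; log2 1.66 ± 0.47, edgeR adjusted p = 0.0137) and PECAM1 fell from 5.53 ± 0.963 to 2.30 ± 0.354 CPM (log2 -1.25 ± 0.24, edgeR adjusted p = 0.000606). With KDR, 2 of the 12 tested endothelial markers rose and 1 fell, where 17.6% of all tested genes were called. The summed level of the endothelial markers was 64.8 to 74.2 CPM in control 24 h and 62.4 to 80.2 CPM in thrombin 24 h.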
